A study of Anguilla anguilla with 24 samples.

Results

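Cells take up receptors, membrane and particles from their surface by wrapping pieces of membrane in a protein coat, and the transcripts of these coats were followed in the brain and liver of European eels (Anguilla anguilla). The set comprised clathrin light chains, the adaptor complexes AP-1 to AP-5, AP180 and picalm, epsins and eps15, intersectins, dynamins, amphiphysins, caveolins, EHD proteins, the endosome proteins APPL2 and EEA1, and the sorting nexins. Members were all contigs (assembled transcript sequences) whose gene label matched a fixed pattern of these family names. The match used no measured value, but the pattern was chosen with earlier results of these data known. The members were 114 of 50640 contigs and carried 69 distinct labels, and 28 of these labels were shared by several contigs. A suffix such as picalm.2.6 means copy 2 of 6 under 1 label. Contigs of a label may be gene copies, splice forms or fragments of 1 transcript, and reads could be split between them.

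The clathrin coat is a lattice of heavy and light chains. Adaptors tie it to membrane and cargo (AP-2 at the cell surface, AP-1 and AP-3 at the trans-Golgi network and endosomes), AP180 and picalm help to set vesicle size, and dynamin pinches the vesicle off with the help of amphiphysins. In mammals AP180, dynamin 1 and amphiphysin serve the recycling of synaptic vesicles in neurons, whereas picalm and dynamin 2 are broadly expressed. In the liver, the same machinery takes up lipoproteins and glycoproteins from blood.

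RNA was sequenced from 12 eels, and each eel gave a brain and a liver library. Of these, 6 were controls (labelled NP0) and 6 had been exposed to gold nanoparticles through food for 21 days (NP1, here called gold-fed). This made 4 groups of 6 libraries. The sources used here give no strain, age, dose or particle size, and do not say whether eels shared tanks. The p-values therefore set a difference against the spread between libraries of these groups. Fits of liver against brain, and of the difference in gold response, took the brain and liver of an eel as independent libraries. Counts from fits with the eel as a block are given at the end. The values deposited are unnormalized reads counted on each contig. Levels below are CPM (reads on a contig per 1000000 reads of the effective library size), and a level compares libraries for 1 contig but not contigs with each other, because contig lengths were not given.

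Libraries held 66.0 to 116 M counted reads in brain and 50.3 to 89.8 M in liver (M, 1000000 reads). The tissue labels were checked against marker lists. Neuron markers (25 contigs) summed to 976 to 1121 CPM in control brain and 18.05 to 24.9 CPM in control liver, which was 2.01% of the brain mean. Hepatocyte markers (12 contigs) summed to 22712 to 45746 CPM in control liver and had a median of 27.4 CPM in control brain. The brain of control eel 3 reached 415 CPM of hepatocyte markers, and that of gold-fed eel 10 reached 99.8 CPM. By the test given below, 11 of these 12 contigs were higher in control liver than in control brain and 1 was lower (log2 fold change -4.48). Which of the contigs carried these 2 brain sums is not given here. Markers of smooth muscle matched 0 contigs. In whole tissue, fewer cells of a type and less RNA per cell cannot be told apart.

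The first question was how coat and adaptor transcripts differed between brain and liver. The members took 0.402% of all reads in control brain and 0.0606% in control liver, and with gold the shares were 0.406% and 0.0641%. Relative to the typical contig, members went both ways in control eels. Of 114 contigs, 36 were higher and 46 lower in liver, and 32 did not pass (edgeR's quasi-likelihood test, Benjamini-Hochberg adjusted over 49741 contigs, threshold 0.05). The members called made up 71.9%, a share close to the background of 75.1% over all contigs tested (34.9% higher, 40.1% lower). The libraries of both tissues did not overlap for 72 members (63.2%, against 58% of all contigs). The families differed in direction, which is described next by role and shown in the plot of fold changes by role.

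**Figure D1:**
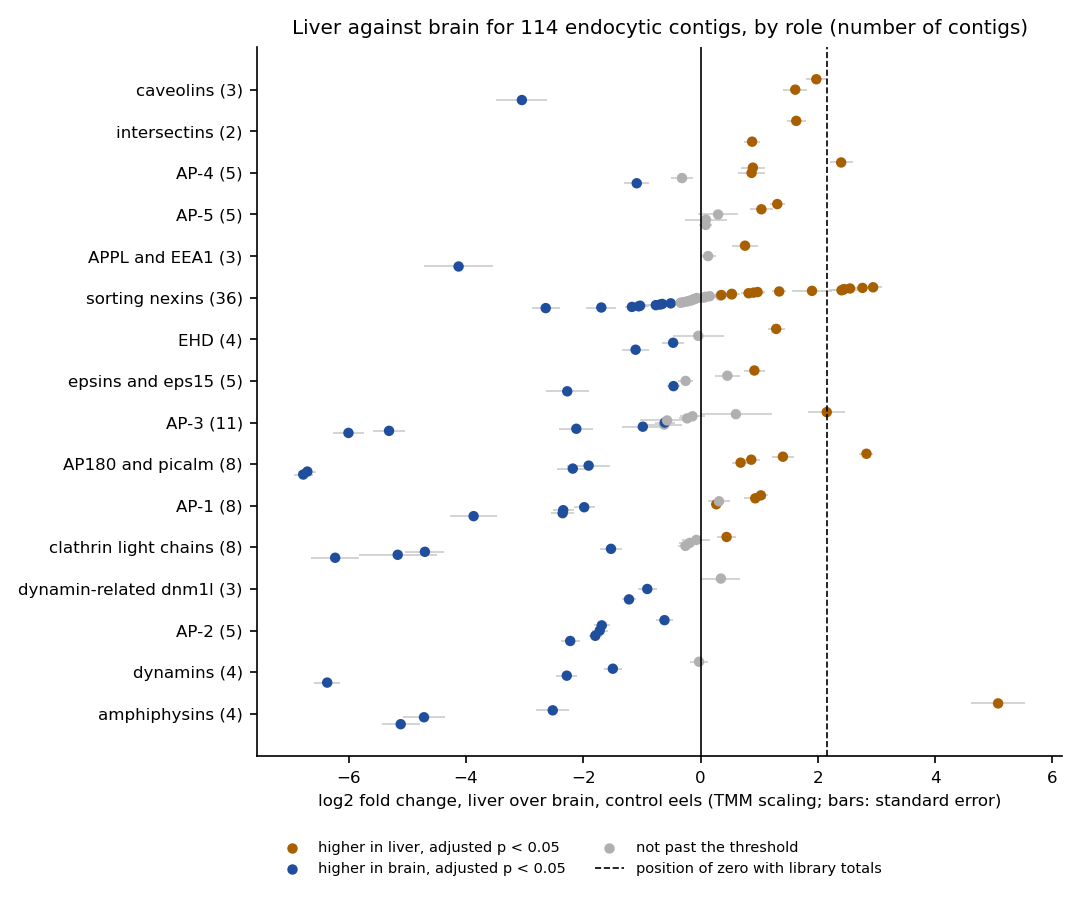
Log2 fold change of liver over brain in control eels for each of the 114 contigs (x axis, bars are standard errors), arranged by role (y axis, number of contigs in parentheses). All 5 AP-2 contigs lie left of zero, both intersectins lie right of it, and amphiphysins span -5.11 to 5.07. The dashed line marks where zero would fall if libraries were scaled by their totals.

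Scaling matters for the word higher. Liver libraries had TMM factors (edgeR's correction for libraries dominated by a few transcripts) of 0.424 to 0.566 and brain libraries of 1.99 to 2.17. With library totals instead, the median of all contigs shifted by -2.15 on the log2 scale, and 5 members were higher and 102 lower in liver. The 5 were bin1b, snx9.1.2, picalm.2.6, snx7 and snx21.1.2. The share of called members that were higher in liver moved from 43.9% to 4.67%, and that of all called contigs from 46.5% to 12.2%. Every "higher in liver" below is therefore relative to the typical contig. The calls of "lower in liver" for the members described held under both scalings. Library totals move liver values down, so this change of scaling could hardly have undone such calls and is no check of them. Read ratios within a library, given further on, do not depend on this choice.

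The clathrin light chains, which regulate the assembly of the heavy chain lattice, split by gene. All 3 contigs of light chain A were lower in liver (log2 fold changes -4.70 for clta.1.3, -5.16 for clta.2.3 and -6.23 for clta.3.3). The value of clta.2.3 rests on few liver reads, with 2 control livers at 0, and leaving out 1 library at a time gave -5.94 to -4.76. The lowest, median and highest values of clta.3.3 were 28.2, 33.5 and 38.3 CPM in control brain and 0.140, 0.396 and 1.08 CPM in control liver (log2 fold change -6.23, SE 0.40, adjusted p 5.19e-09). Every brain library stood far above every liver library. Light chain B was measured in 5 contigs, of which cltb.1.5 was lower (-1.53), cltb.5.5 higher (0.44) and 3 did not pass. Its most read contig, cltb.3.5, ran from 12.7 to 22.2 CPM in control brain and from 9.04 to 19.9 CPM in control liver, which overlap (log2 fold change -0.18, SE 0.18, adjusted p 0.381). With library totals, which lower all liver values alike, cltb.3.5 was at -2.37 and passed. The heavy chain was found under a protein entry name outside the pattern. Its most read contig, CLH1.2.3, was lower in liver by a smaller step (control brain 78.1, 80.6 and 86.5 CPM, control liver 43.2, 46.9 and 62.8 CPM, log2 fold change -0.73, SE 0.12, adjusted p 6.31e-05).

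AP-2, the adaptor of the cell surface, was lower in liver in all 5 contigs, with log2 fold changes of -2.22 to -0.61. The beta subunit ap2b1 had 56.7, 61.9 and 75.2 CPM (lowest, median, highest) in control brain and 10.3, 13.3 and 17.9 CPM in control liver (log2 fold change -2.22, SE 0.16, adjusted p 1.42e-08). The 3 contigs of the alpha subunit ap2a1 moved by nearly equal amounts (-1.80 to -1.68), and the most read, ap2a1.3.3, went from 66.3, 77.0 and 85.8 CPM to 20.2, 21.9 and 25.6 CPM. The small sigma subunit AP2S1 moved least, from 88.9, 112 and 119 CPM in brain to 56.5, 70.8 and 87.2 CPM in liver (log2 fold change -0.61, SE 0.14, adjusted p 0.00109). For AP2S1 too the highest liver lay below the lowest brain.

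AP180 and picalm are related adaptors that bind membrane lipid and clathrin, and their contigs parted between the tissues. AP180.2.2 was at 142, 156 and 159.7 CPM in control brain and 1.17, 1.48 and 1.78 CPM in control liver, so the liver mean was 0.954% of the brain mean (log2 fold change -6.71, SE 0.15, adjusted p 5.64e-13). AP180.1.2 stood at 0.908% (-6.77, SE 0.16), and these were the largest falls of any member. Of the 6 picalm contigs, 4 were higher and 2 lower in liver. The largest rise was that of picalm.2.6, from 3.96, 4.37 and 5.002 CPM in control brain to 28.4, 30.9 and 36.5 CPM in control liver (log2 fold change 2.83, SE 0.12, adjusted p 6.06e-11), and it kept its sign with library totals (0.67). In the other direction, picalm.5.6 went from 10.4, 10.95 and 14.1 CPM to 1.41, 2.46 and 4.68 CPM (log2 fold change -2.18, SE 0.27, adjusted p 4.12e-06). Neither contig had overlapping tissues. The most read contig of the label, picalm.3.6, was higher by less (0.68, SE 0.15) and at -1.48 with library totals.

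Among the cargo and scaffold proteins at the coat's edge, the intersectins were higher in liver relative to the typical contig and lower with library totals (-0.51 for ITSN1, -1.26 for itsn2). ITSN1 had 29.2, 31.2 and 32.1 CPM in control brain and 74.0, 85.9 and 134 CPM in control liver (log2 fold change 1.63, SE 0.16, adjusted p 4.04e-07), and itsn2 had a log2 fold change of 0.88 (SE 0.14). Of the epsins, which bend membrane and bind ubiquitin, epn2 was lower in liver (-0.46) while a second contig of that label, EPN2, was higher (0.92), and epn3 did not pass (0.46, adjusted p 0.0597). Without control liver 1, epn3 passed as higher (0.52, adjusted p 0.0286). With library totals all 5 contigs of the group were lower. The scaffold eps15 had overlapping values of 30.4 to 37.8 CPM in brain and 20.8 to 34.7 CPM in liver (log2 fold change -0.25, SE 0.13, adjusted p 0.0914). It passed as lower with RLE size factors (-0.32), with DESeq2 (-0.31) and without control liver 3 (-0.37). Its relative eps15l1 fell from 2.79, 3.15 and 3.497 CPM to 0.176, 0.692 and 1.27 CPM (log2 fold change -2.27, SE 0.37, adjusted p 5.94e-05).

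The dynamins, which cut the neck of the vesicle, differed by gene. Dynamin 1 (dnm1a) was at 61.1, 72.1 and 80.9 CPM in control brain and 0.587, 0.812 and 1.36 CPM in control liver, where its mean was 1.21% of that in brain (log2 fold change -6.37, SE 0.22, adjusted p 1.05e-11). Dynamin 2 (dnm2) was at 6.48, 7.07 and 7.77 CPM and 4.81, 7.10 and 9.14 CPM, and the difference of -0.03 (SE 0.16) did not pass. With library totals dnm2 was at -2.17 and passed. Both dynamin 3 contigs were lower in liver, and dnm3.2.2 fell from 20.7, 24.8 and 34.4 CPM to 3.75, 5.47 and 6.65 CPM (-2.28, SE 0.18). The label dnm1l, caught by the same pattern, names the dynamin-related protein that divides mitochondria and is no coat protein. Of its 3 contigs, 2 were lower in liver (dnm1l at -1.22 and DNM1L.2.2 at -0.91).

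Amphiphysins bind dynamin and curved membrane. amph.2.2 fell from 5.35, 8.94 and 14.6 CPM in control brain to 0.105, 0.287 and 0.373 CPM in control liver (-5.11, SE 0.32), and amph.1.2 fell less (-2.52). The liver values of amph.2.2 rest on few reads, as 1 read was 0.0197 to 0.0397 CPM in control liver. Its counts in liver were too low for the gold test there. The related bin1 and bin1b went in opposite directions. The label bin1 was at 10.2, 17.2 and 43.5 CPM in control brain and 0.523, 0.761 and 1.02 CPM in control liver (log2 fold change -4.72, SE 0.35, adjusted p 2.12e-08). The label bin1b was at 0.343, 0.532 and 0.837 CPM in brain and 3.35, 19.7 and 31.4 CPM in liver (log2 fold change 5.07, SE 0.47, adjusted p 2.07e-07), and with library totals the difference was 2.93. No library of one tissue overlapped the other for either gene, although bin1b ranged widely within each tissue.

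**Figure D2:**
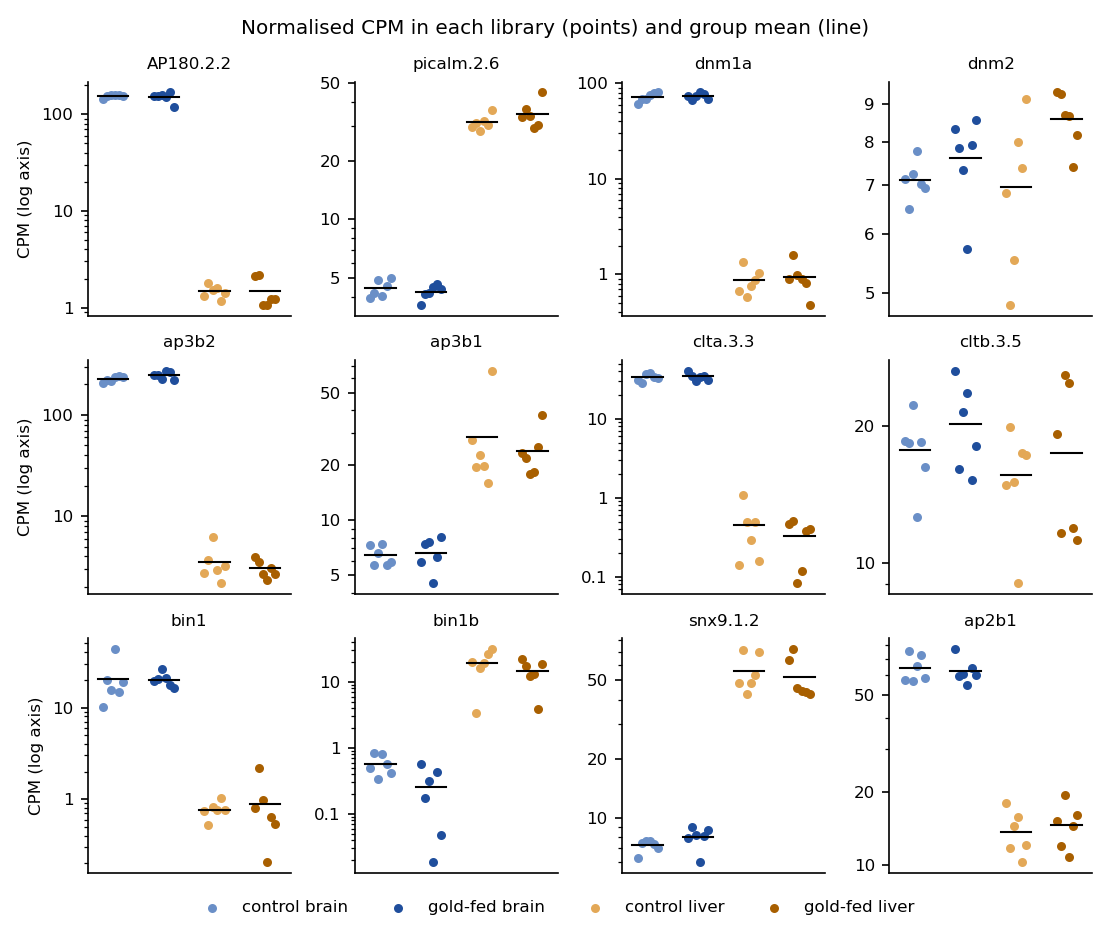
CPM (log axis, own scale in each panel) of 12 contigs in each of the 24 libraries, with points for libraries, lines for the means of 6, and colours for the 4 groups. AP180.2.2, dnm1a, ap3b2 and clta.3.3 have liver means of 0.954% to 1.55% of brain, dnm2 and cltb.3.5 overlap, picalm.2.6, bin1b and snx9.1.2 are higher in liver under both scalings, ap3b1 is higher on this scale and at -0.04 with library totals, and control and gold-fed points overlap in each panel.

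AP-3 carries cargo towards lysosome-related organelles and, in mammals, has a neuronal form made with the beta subunit AP3B2 and the mu subunit AP3M2. Of the 11 AP-3 contigs, 1 was higher in liver and 5 lower, and with library totals 0 were higher and 10 lower. Both neuronal subunits were far lower in liver. The contig ap3b2 was at 207, 229 and 239.8 CPM in control brain and 2.17, 3.09 and 6.28 CPM in control liver (log2 fold change -6.004, SE 0.26, adjusted p 8.12e-11), and ap3m2 at 15.02, 17.7 and 19.2 CPM and 0.234, 0.363 and 0.874 CPM (-5.31, SE 0.27). The general beta subunit ap3b1 had 5.66, 6.29 and 7.42 CPM in brain and 15.9, 21.3 and 66.0 CPM in liver (log2 fold change 2.15, SE 0.31, adjusted p 2.24e-05). The highest liver value came from control eel 6, the remaining 5 lay between 15.9 and 27.4 CPM, and leaving out 1 library at a time gave 1.68 to 2.23. With library totals ap3b1 was at -0.04. Of the sigma and delta subunits, ap3s2.1.2 (-0.98), ap3d1.1.3 (-2.12) and ap3d1.3.3 (-0.61) were lower in liver, while ap3s1.1.2, ap3s2.2.2 and AP3D1 did not pass (0.60, -0.23 and -0.14). The counts of ap3d1.1.3 in liver were too low for the gold test there. With library totals ap3s1.1.2 was at -1.53 and ap3s2.2.2 at -2.40, and both then passed. Without control liver 2 or 6, ap3s2.2.2 passed as lower (-0.34 and -0.32).

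AP-1, the adaptor of the trans-Golgi network, had 3 contigs higher and 4 lower in liver. Its mu and sigma subunits AP1M1.1.2 (46.3, 57.3 and 59.3 CPM in brain, 10.3, 12.97 and 20.3 CPM in liver, -1.98) and AP1S2 (-2.35) fell, as did AP1M1.2.2 (-3.87), while ap1s1.1.2 rose (14.1, 16.3 and 17.3 CPM and 24.96, 33.5 and 38.4 CPM, 1.03). AP1B1 (0.93) and AP1G1 (0.27) were slightly higher, and with library totals these 3 higher contigs turned to -1.14, -1.21 and -1.89. AP1G1 no longer passed without control liver 3 or 5. AP-4 and AP-5, which do not work with clathrin, had more contigs higher than lower in liver by TMM and none higher by library totals. AP-4 had 3 contigs higher and 1 lower, led by the sigma subunit ap4s1 (4.03, 4.65 and 5.08 CPM in brain, 14.7, 23.1 and 38.0 CPM in liver, 2.40, and 0.21 with library totals). AP-5 had 2 higher and 0 lower, ap5b1 at 1.31 and ap5m1 at 1.04, and all 5 were lower with library totals.

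Sorting nexins bind endosomal lipids and shape tubules that carry cargo back from endosomes. They were the largest family and went both ways, with 14 of 36 contigs higher in liver, 9 lower and 13 not passing (median 0.0031). SNX9, which in mammals works with dynamin at the plasma membrane, led the higher ones. The contig snx9.1.2 was at 6.27, 7.43 and 7.67 CPM in control brain and 42.7, 50.7 and 71.7 CPM in control liver (log2 fold change 2.94, SE 0.16, adjusted p 6.17e-10), and kept its sign with library totals (0.77). Others were snx7 (2.76), snx9.2.2 (2.55), snx21.1.2 (2.45), snx5.2.2 (2.43) and snx3.1.5 (2.40). SNX5 and SNX6 are partners of the retromer, a coat of endosomes. Of the lower ones, snx19 moved most (17.7, 27.3 and 41.2 CPM in brain, 3.11, 4.40 and 5.95 CPM in liver, -2.64), followed by snx18.2.2 (-1.69) and snx27b, a retromer partner in receptor recycling (-1.17). With library totals, the values of snx9.2.2, snx5.2.2 and snx3.1.5 were 0.38, 0.32 and 0.22 and did not pass.

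Of the endosome proteins, eea1.1.2, the tether of early endosomes, was at 26.2, 31.5 and 32.3 CPM in brain and 26.0, 32.3 and 40.9 CPM in liver and did not pass (0.13, adjusted p 0.405). The second contig, eea1.2.2, was higher in liver relative to the typical contig, at 0.614, 0.663 and 0.823 CPM in brain and 0.805, 1.15 and 1.53 CPM in liver (log2 fold change 0.76, SE 0.22, adjusted p 0.00656), and was lower with library totals. EHD proteins remodel recycling endosomes, and ehd2 (-1.11) and ehd4 (-0.47) were lower while ehd2b.2.2 was higher (1.29, and -0.88 with library totals). The adjusted p of ehd4 was 0.0368 and exceeded 0.05 in 6 of the 12 fits that left out 1 library. The caveolins, coat proteins of caveolae, went apart. cav1.2.2 had 2.64, 4.97 and 6.50 CPM in brain and 12.7, 13.99 and 17.5 CPM in liver (1.62, and -0.54 with library totals), and cav2 had 0.722, 1.26 and 1.96 CPM and 0.0585, 0.112 and 0.381 CPM (-3.05, SE 0.43). The liver values of cav2 rest on few reads, as 1 read was 0.0197 to 0.0397 CPM in control liver. It too was too low in liver for the gold test there. Endothelium markers (11 contigs), a cell type rich in caveolae, summed to 61.7 to 85.7 CPM in control brain and 183 to 490.0 CPM in control liver. Of these contigs 8 were higher in liver and 3 did not pass, and with library totals 1 was higher and 10 lower. The part of endothelium in the caveolin values was not tested. All 25 neuron marker contigs were detected in control liver at a summed 2.01% of brain. The lowest liver shares of any member were 0.908% to 1.55%, for AP180.1.2, AP180.2.2, dnm1a, clta.3.3 and ap3b2. Shares above that of the markers were those of ap3m2 (2.56%), clta.2.3 (2.59%), amph.2.2 (2.83%), bin1 (3.77%) and clta.1.3 (3.84%), among others. The part of neurons in these values was not tested.

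Copies under 1 label did not always move together. Of the 28 labels with several contigs, 6 had contigs that passed in both directions: ap1s1, cltb, epn2, picalm, snx18 and snx3. Over all contigs 34.9% were higher and 40.1% lower, and the share of all labels with calls in both directions was not counted. With library totals, picalm.2.6 was the only contig of these 6 labels that passed as higher. For ap1s1, ap1s1.1.2 was higher (1.03) and ap1s1.2.2 lower (-2.34) in liver. For snx3, snx3.1.5 was higher (2.40) and snx3.3.5 lower (-0.69). With counts summed over a label before the fit, 24 of 69 labels were higher and 28 lower in liver, where 75.7% of all labels tested passed, and picalm as a whole was at 0.82.

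Ratios of reads between relatives within a library can be read without any scaling. The pairs were chosen after their values were seen and are a description. The log2 ratio of AP180 to picalm had a median of 2.41 (range 2.05 to 2.73) in the 12 brains and -5.16 (range -5.97 to -4.69) in the 12 livers. The snap91 contigs, under another name of AP180, and the contig PICAL were not in these sums. For dnm1a to dnm2 the medians were 3.28 (range 2.99 to 3.81) and -3.19 (range -4.06 to -1.81). For ap3b2 to ap3b1 they were 5.18 (range 4.76 to 5.93) and -2.80 (range -4.35 to -1.85). Each of these pairs changed sides between the tissues without overlap, although the position of zero depends on the unknown contig lengths. The ratio of bin1 to bin1b moved furthest, from 5.48 (range 4.38 to 9.90) to -4.65 (range -5.89 to -2.56). Its highest brain value came from gold-fed eel 10, the highest control brain was at 5.75, and low counts limit bin1b in brain. Light chain A to light chain B moved from 0.33 (range 0.03 to 0.51) to -5.22 (range -6.35 to -4.31), and the sigma subunits ap1s2 to ap1s1 from 0.65 (range 0.43 to 1.01) to -2.58 (range -3.06 to -1.95). The ratio of itsn1 to itsn2 overlapped between the tissues, at 1.15 (range 0.98 to 1.41) and 1.80 (range 1.28 to 2.44). Within 1 label, picalm.2.6 to picalm.5.6 moved from -1.37 (range -1.83 to -0.97) to 3.90 (range 2.74 to 4.61).

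**Figure D3:**
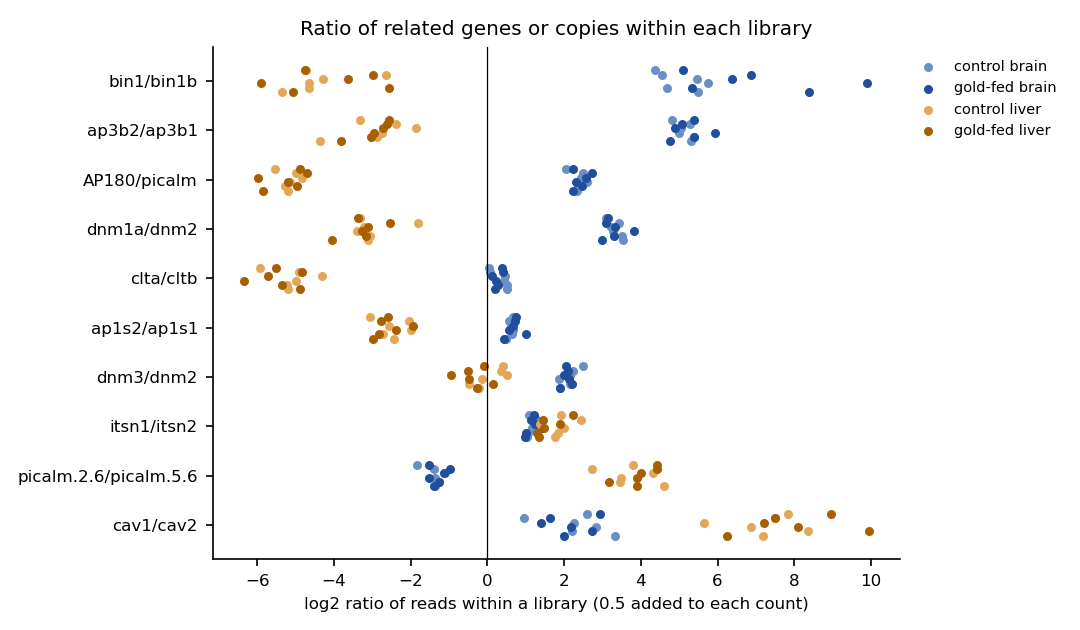
Log2 ratio of reads of 2 related genes (counts summed by label) or 2 copies within each library (x axis, 0.5 added to each count), for 10 pairs (y axis), with 24 points per pair coloured by group. Brain and liver points are apart for each pair but itsn1/itsn2, where they overlap. Control and gold-fed points of a tissue overlap, though bin1/bin1b reached 9.90 in gold-fed brain and 5.75 in control brain.

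In gold-fed eels the tissues differed in the same way. Liver against brain gave 83 members past the threshold (36 higher, 47 lower, against 73% of all contigs, with 33.3% higher and 39.7% lower), and 76 members were called in both exposure groups, each with the same sign. Another 6 were called in control eels alone and 7 in gold-fed eels alone, and the interaction below tests that difference. The shares of all contigs called in both groups, or in 1 group alone, were not counted. AP180.2.2 was at 1.06, 1.22 and 2.20 CPM in gold-fed liver and 117, 154 and 169 CPM in gold-fed brain (-6.67), and bin1b at 3.82, 15.3 and 22.03 CPM and 0.0188, 0.244 and 0.566 CPM (5.79).

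The second question was whether the gold diet changed these transcripts. In liver, 0 of the 109 member contigs tested passed with edgeR, and 0% of all contigs did. DESeq2 called 0 members and 289 of 41793 contigs (0.692%), and limma-voom called 0 members and 0 contigs. At an unadjusted p under 0.05 there were 5 members (3 higher, 2 lower), or 4.59%, against 8.4% of all contigs (4.41% higher, 4% lower). Leaving out the liver of eel 2, 5, 8 or 11 brought the number of members to 2, and leaving out that of eel 1, 10 or 12, or scaling by library totals, brought it to 3. Over all contigs these fits had from 2956 of 42405 (without eel 2) to 3542 of 42378 (without eel 1) at that p. In 1 fit of all 24 libraries, 13 members and 7141 of 50455 contigs were at that p. That edgeR fit called 0 members and 229 contigs at the threshold, and the smallest adjusted p of a member was 0.139. In the fit of the livers alone, the median log2 fold change of the members was 0.04, beside 0.02 for all contigs. The smallest adjusted p of a member was 0.529 there. For 0 of the 114 members did the 6 gold-fed livers lie wholly above or below the 6 controls, against 0.434% of all contigs. The 5 members not tested for low counts in liver were ap3d1.1.3, appl2, amph.2.2, cav2 and clta.2.3.

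The liver contigs of smallest p are given as values, since none passed. The sorting nexin snx25.3.3 was at 2.14, 3.33 and 3.74 CPM in control and 3.49, 4.30 and 6.42 CPM in gold-fed liver (log2 fold change 0.49, SE 0.20, adjusted p 0.529). The scaffold eps15 was at 20.8, 27.4 and 34.7 CPM and 31.2, 33.0 and 43.4 CPM (log2 fold change 0.35, SE 0.15, adjusted p 0.563). In each pair the groups overlapped. Next with higher values were snx14 (0.47), snx21.2.2 (0.73) and snx27b (0.29). The value of snx21.2.2, which had 3 to 15 reads per control liver, turned to -0.17 when the counts of its label were summed.

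On the lower side in liver, the AP-1 sigma subunit ap1s1.1.2 was at 24.96, 33.5 and 38.4 CPM in control and 17.2, 25.4 and 32.5 CPM in gold-fed liver (log2 fold change -0.41, SE 0.18, adjusted p 0.576). The AP-5 mu subunit ap5m1 was at 3.61, 5.62 and 8.34 CPM and 3.05, 4.21 and 5.13 CPM (log2 fold change -0.48, SE 0.22, adjusted p 0.584). Both pairs of groups overlapped. AP1S2 (-0.51), ap4s1 (-0.34) and cav1.2.2 (-0.31) followed. Of the members tested in liver, 60 had positive and 49 negative values, and 52.1% of all contigs were positive. Of the 16 roles, 4 had values of 1 sign only, with 5 of 5 epsin and eps15 contigs and 2 of 2 EEA1 contigs positive and 3 of 3 dnm1l and 2 of 2 caveolin contigs negative, none of them past the threshold. The heavy chain CLH1.2.3 was at 43.2, 46.9 and 62.8 CPM and 44.9, 59.8 and 68.4 CPM (log2 fold change 0.28, SE 0.15, adjusted p 0.648).

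Marker sums of other cell types are set beside these values. Leukocyte markers (15 contigs of 8 labels) summed to 201 to 293 CPM in control and 134 to 269.8 CPM in gold-fed liver. Of the 15 contigs, 13 had negative fold changes, 8 of them at an unadjusted p under 0.05 and 0 past the threshold. Over all contigs 20034 of 41793 were negative, and 4% were lower at that p. Contigs of 1 label are not independent. The 2 biliary marker contigs (2 of 6 symbols matched) summed to 3.45 to 7.64 CPM and 7.92 to 26.5 CPM, without overlap, and neither passed. Of all single contigs, 0.434% had no overlap in liver. The biliary sum was 7.63 to 17.6 CPM in control brain. Between the tissues of control eels, 1 of the 2 contigs was higher and 1 lower in liver. Whether this pair follows bile duct cells was not tested. Erythrocyte markers summed to 1032 to 4306 CPM and 396 to 2311 CPM. Hepatocyte markers overlapped, at 22712 to 45746 CPM and 29734 to 37899 CPM. Their part in the member values was not tested.

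In brain, 0 of 114 members passed with edgeR, against 0.00201% of all contigs. At an unadjusted p under 0.05 there were 6 members (2 higher, 4 lower), or 5.26%, against 7.75% of all contigs (3.37% higher, 4.39% lower). The median log2 fold change was 0.02, and the median absolute log2 fold change was 0.0753 in brain and 0.165 in liver. Over all contigs the median absolute log2 fold change was 0.148 in brain and 0.240 in liver. DESeq2 called 1 of the 114 members and 178 of 49830 contigs (0.357%), and limma-voom called 0 members and 1 contig. In 1 fit of all 24 libraries, 3 of the 114 members were at an unadjusted p under 0.05, and 1819 of 50455 contigs then were. The libraries of the groups did not overlap for 2 members (1.75%, against 0.51% of all contigs), AP1M1.1.2 and appl2.

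The endosomal adaptor appl2, which binds the small GTPase Rab5 and signalling receptors in mammals, had the smallest p. Its brain values were 0.315, 0.332 and 0.524 CPM in control and 0.0999, 0.174 and 0.250 CPM in gold-fed eels, and each gold-fed brain was below each control brain. These levels rested on 47 to 71 reads per control and 19 to 41 reads per gold-fed library. The log2 fold change was -1.10 (SE 0.24), with an unadjusted p of 4.65e-04 and an adjusted p of 0.530 over 49830 contigs. With DESeq2 the value was -1.11 and the adjusted p was 0.00891. Leaving out 1 library at a time gave log2 fold changes of -1.24 to -0.97 and adjusted p of 0.175 to 0.754. In liver appl2 had 0 to 2 reads per control library, with 4 of 6 at 0, and 0 to 6 reads per gold-fed library, so no tissue ratio is given.

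AP1M1.1.2 was at 46.3, 57.3 and 59.3 CPM in control and 60.2, 64.0 and 66.6 CPM in gold-fed brain (log2 fold change 0.16, SE 0.06, adjusted p 0.620), and epn2 at 18.204, 19.3 and 20.6 CPM and 20.4, 21.6 and 24.7 CPM (log2 fold change 0.16, SE 0.06, adjusted p 0.623). For AP1M1.1.2 each gold-fed brain was above each control, while for epn2 the groups met at 20.4 to 20.6 CPM. The next higher values by p were those of ap2a1.1.3 (0.22), snx3.2.5 (0.21) and ap3s1.2.2 (0.30). The lower values by p were those of snx8 (-0.62, on 42 to 66 reads per gold-fed library), picalm.1.6 (-0.29), ap3d1.2.3 (-0.37, but 0.09 with the counts of its label summed) and bin1b (-1.17). The bin1b values were 0.343, 0.532 and 0.837 CPM and 0.0188, 0.244 and 0.566 CPM and overlapped, with an SE of 0.60. Leukocyte markers summed to 65.4 to 164 CPM in control and 46.0 to 236 CPM in gold-fed brain. All 15 contigs, of 8 labels, had positive values, where 50% of all contigs did. The part of these markers in the member values was not tested.

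**Figure D4:**
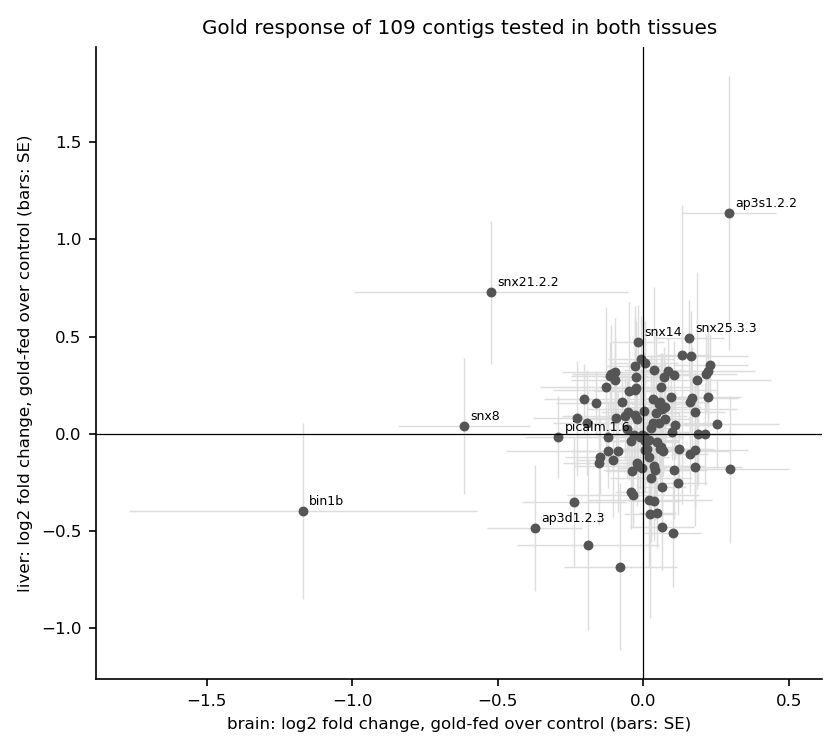
Log2 fold change of gold-fed over control eels in brain (x axis) and in liver (y axis) for the 109 contigs tested in both tissues, with standard errors as grey bars. Most points lie near the origin, and no contig passed the threshold in either tissue.

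Whether liver and brain responded differently to gold was asked in a fit of all 24 libraries. With edgeR 0 of the 114 members passed, against 0.00595% of all contigs, and DESeq2 called 0 members and 136 of 50455 contigs (0.27%). Limma-voom called 0 members and 2 contigs. At an unadjusted p under 0.05 there were 6 members (2 positive, 4 negative, or 5.26%, against 6.78% of all contigs). That number was 3 without control brain 6 or control liver 6, and 2 without gold-fed liver 11. Over all contigs, 3028 of 50487, 3233 of 50511 and 3308 of 50511 were at that p in these fits. Of the members, appl2 had the smallest p (log2 fold change 3.24, SE 0.87, adjusted p 0.345), a contrast that rests on the few liver reads given above. Other positive values were those of snx14 (0.46), snx21.2.2 (1.22, but -0.14 with label sums), cltb.4.5 (0.38) and ap1g1 (0.35). Negative values were those of ap1s1.1.2 (-0.49), ap5m1 (-0.58), AP1S2 (-0.65), ap5b1 (-0.40) and snx18.1.2 (-0.37). Each of these comparisons uses the same control libraries as the comparison within its tissue.

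The median member had a lower coefficient of variation between eels than the median contig, but these sets were not matched for read level. The part of read level in this difference was not tested. Among members of at least 1 CPM, the median coefficient of variation was 11.4% in control brain and 21.4% in control liver, beside 17.8% and 30.8% over all contigs of at least 1 CPM. In gold-fed eels it was 12.8% and 21.5%, beside 18.96% and 30.9%. The AP-3 sigma subunit was an exception in liver. The values of ap3s1.1.2 in control livers 1 to 6 were 45.01, 2.93, 35.8, 8.63, 3.37 and 4.17 CPM, and in gold-fed livers 7 to 12 they were 3.45, 19.6, 6.53, 32.0, 48.8 and 21.1 CPM. Both groups held livers at the high and the low end, with no liver between 8.63 and 19.6 CPM. The brains of the same eels kept to 9.07 to 13.2 CPM. The second contig ap3s1.2.2 ran from 1.43 to 32.3 CPM over the livers, and was highest in gold-fed liver 11 (32.3 CPM) and lowest in control liver 2 (1.43 CPM), as was ap3s1.1.2. Gold-fed and control livers overlapped for both (0.41, SE 0.77, and 1.14, SE 0.71).

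The delta subunit contig AP3D1 varied by eel in another way. It was highest in eel 8 in both tissues (7.75 CPM in brain, 7.45 CPM in liver), next highest in the liver of eel 9 (5.13 CPM, with 4.75 CPM in its brain), and low in both tissues of eel 6 (2.37 and 2.54 CPM), eel 7 (2.76 and 2.94 CPM) and eel 10 (3.02 and 2.13 CPM). These 3 AP-3 contigs were picked for this description after their values were seen.

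**Figure D5:**
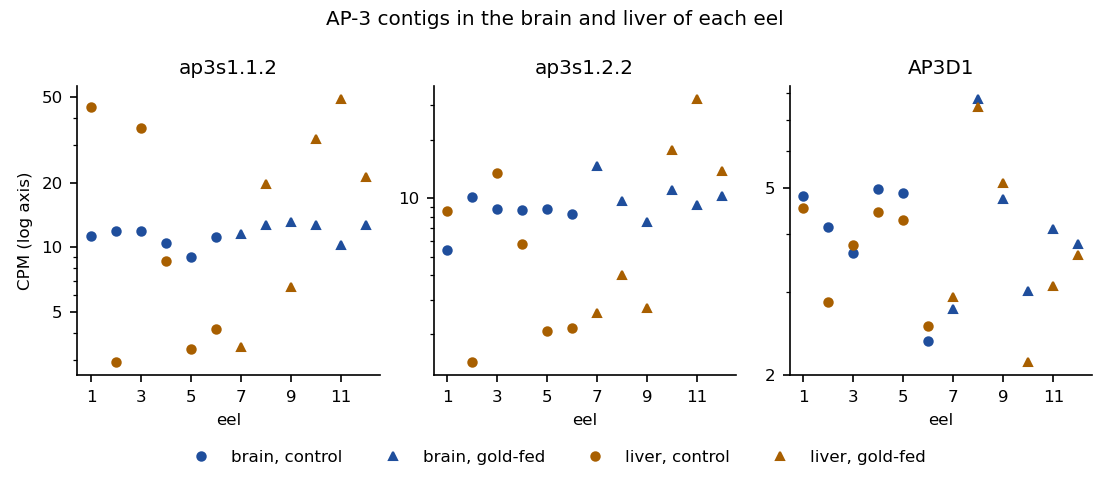
CPM (log axis, own scale in each panel) of 3 AP-3 contigs by eel (x axis, 1 to 12), in brain (blue) and liver (brown), with circles for control and triangles for gold-fed eels. The ap3s1 contigs spread more in liver than in brain, whereas the brain and liver points of AP3D1 lie close together in most eels.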

How the data were processed

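RNA of brain and liver from the same 12 eels was sequenced in 24 libraries. Per the labels' protocols, RNA was extracted with the SV Total RNA isolation kit and the TruSeq RNA Library Prep Kit v2 was used for sequencing libraries. Per the submitters' processing notes, BWA 0.7.12 and SAMtools 1.1 were used. For assembly, annotation, counting rule and strandedness, nothing is given in the sources used here. The deposited values are raw read counts per contig, not normalized by the authors.

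Each comparison was fitted on all contigs with edgeR 4.0.16 (R 4.3.3) by the quasi-likelihood F test, with TMM factors, filterByExpr by group and Benjamini-Hochberg adjustment over all contigs tested at a threshold of 0.05. Each tissue or exposure group was fitted on its own 12 libraries, and the interaction on all 24. The standard error (SE) is the absolute log2 fold change over the square root of F. CPM values (per 1000000 reads) use TMM factors over all 24 libraries. The code was tested on simulated data. No pair of libraries in a group agreed within sampling noise (lowest chi-square per degree of freedom 66.7). Alternatives were RLE size factors, library totals, DESeq2 1.42.0, limma-voom (limma 3.58.1), no low-count filter, counts summed by label, 1 fit of all 24 libraries, the eel as a block, and leaving out each library.

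Brain and liver share eel numbers because each eel gave both. Deviations of the 2 tissues of an eel correlated at 0.283 to 0.49, and each of the 12 eels matched best with itself.

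Members and lists were chosen with earlier results of these data known. The most read contig stood for a label in most families. Named besides were the 5 contigs of smallest p per direction in the gold comparisons and the 10 of largest change per direction between tissues with a mean of at least 1 CPM. For partner genes, 3 contigs per list were named. The contigs AP1M1.2.2, AP3D1, EPN2, DNM1L.2.2, ap1s1.2.2, ap3d1.1.3, ap3s2.1.2, cltb.1.5, cltb.5.5, eea1.2.2, picalm.5.6, snx18.2.2, snx19 and snx3.3.5 are outside this rule and were chosen after their values were seen. Of the 69 labels, 46 equal a RefSeq symbol of the eel. Coordinates and sequences are not used here.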

Additional observations from a re-analysis of the deposited data

Results flagged for a closer look

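In 32 of the 260 groups of 6 libraries examined (65 named members in 4 groups), the highest or lowest library stood apart from the other 5 by Dixon's gap test. That is 12.3%, where about 5% would be found in independent values with a normal distribution. The CPM values were not transformed, and the groups share the same 24 libraries. An excess over chance was therefore not tested. Values are CPM, with the range of the other 5 libraries of the group.

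In control brain, 1 library stood above the others for appl2 in eel 4 (0.524 CPM, others 0.315 to 0.357), bin1 in eel 4 (43.5 CPM, others 10.2 to 19.8), picalm.1.6 in eel 1 (9.70 CPM, others 6.31 to 7.51) and clta.2.3 in eel 4 (10.97 CPM, others 2.31 to 4.95). Below the others stood AP180.2.2 in eel 1 (142 CPM, others 154 to 159.7), AP1M1.1.2 in eel 6 (46.3 CPM, others 57.0 to 59.3) and ehd2 in eel 1 (1.603 CPM, others 2.69 to 3.32).

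In gold-fed brain, 1 library stood above the others for ap3d1.3.3 in eel 7 (23.2 CPM, others 10.8 to 13.4), cav1.2.2 in eel 12 (7.13 CPM, others 3.62 to 4.87), epn3 in eel 11 (3.497 CPM, others 2.53 to 2.72), ap4s1 in eel 7 (5.56 CPM, others 4.34 to 4.75), ap2a1.1.3 in eel 10 (59.0 CPM, others 39.0 to 42.5), snx3.1.5 in eel 12 (13.2 CPM, others 7.64 to 9.65) and clta.1.3 in eel 10 (21.95 CPM, others 13.4 to 14.3). Below the others stood AP180.2.2 in eel 12 (117 CPM, others 150.2 to 169), ehd2 in eel 7 (1.89 CPM, others 2.91 to 3.29), snx8 in eel 11 (0.178 CPM, others 0.273 to 0.320) and snx9.1.2 in eel 10 (5.98 CPM, others 7.95 to 8.97).

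In control liver, 1 library stood above the others for ap3b1 in eel 6 (66.0 CPM, others 15.9 to 27.4), cav1.2.2 in eel 5 (17.5 CPM, others 12.7 to 14.3), cav2 in eel 3 (0.381 CPM, others 0.0585 to 0.157), snx14 in eel 6 (28.5 CPM, others 18.13 to 21.6), snx9.2.2 in eel 2 (12.3 CPM, others 5.99 to 8.27) and snx21.1.2 in eel 2 (19.99 CPM, others 15.6 to 17.2). Below the others stood snx25.3.3 in eel 1 (2.14 CPM, others 3.28 to 3.74).

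In gold-fed liver, 1 library stood above the others for AP1G1 in eel 8 (32.4 CPM, others 25.03 to 26.6), amph.1.2 in eel 7 (5.21 CPM, others 0.537 to 1.68), ap3b1 in eel 12 (37.8 CPM, others 17.9 to 25.3), epn3 in eel 12 (8.57 CPM, others 3.78 to 4.63), picalm.3.6 in eel 12 (25.1 CPM, others 14.6 to 17.8) and ap3d1.2.3 in eel 9 (1.23 CPM, others 0.709 to 0.898). Below the others stood ehd4 in eel 10 (5.76 CPM, others 7.42 to 7.73).

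Eel 4 of the control brains was high for appl2, bin1 and clta.2.3, eel 10 of the gold-fed brains was high for ap2a1.1.3 and clta.1.3, and eel 12 of the gold-fed livers was high for ap3b1, epn3 and picalm.3.6.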

How the results depend on the processing

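The number of members past the threshold stayed within 1.5 times in each comparison and setting, apart from DESeq2 in brain with gold (1, appl2, against 0) and counts summed by label, with 52 of 69 labels in control and 52 in gold-fed eels, where fewer features were tested. Over all labels, 30964 of 40925 (control) and 30106 of 40950 (gold-fed) then passed. Leaving out 1 library at a time gave 79 to 84 members for control and 79 to 86 for gold-fed tissues, and 0 in the gold and interaction comparisons. Over all contigs, 36293 of 49875 to 37368 of 50028 passed for control and 35392 of 49884 to 36345 of 50082 for gold-fed tissues. In the gold and interaction comparisons 0 to 10 contigs did. With the eel as a replicate block 82 (control), 87 (gold-fed) and 0 (interaction) members passed. Over all contigs, 38588 of 49741, 38240 of 49776 and 1 of 50455 then passed. With this block no call of a named contig changed, though the uncalled ap3s1.1.2 turned to -0.28. Gold comparisons within a tissue share no eel, so no block exists there.

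Library totals turned liver against brain for AP1B1 (-1.21), AP1G1 (-1.89), ITSN1 (-0.51), ap1s1.1.2 (-1.14), ap3b1 (-0.042), ap3s1.1.2 (-1.53), cav1.2.2 (-0.54), eea1.1.2 (-2.01), ehd2b.2.2 (-0.88), epn3 (-1.70), itsn2 (-1.26), picalm.3.6 (-1.48), sdpr (-0.42), FLOT2.3.3 (-1.34), FLOT2.2.3 (-1.35) and pdcd6ip.2.2 (-0.45), by the shift of all contigs. They turned CLH1.2.3 in brain with gold to -0.0067. Limma-voom gave -0.24 for ap3s1.1.2. Sums by label pool copies and gave -0.17 (liver) and -0.14 (interaction) for snx21.2.2, 0.092 for ap3d1.2.3, 0.0079 for CLH1.1.3, 0.037 for FLOT2.1.3, -0.26 (liver) and -0.022 (brain) for fcho2.3.3, -0.11 for vps35, 0.067 for WASH1.1.3, 0.15 for zfyve9.1.3 and -0.034 for sh3gl3.2.3. They ended the calls of FLOT2.3.3 and FLOT2.2.3 (0.046). Without 1 library, signs changed for uncalled contigs: ap3s1.1.2 (-0.037 to 0.78) and dnm2 (-0.15 to 0.016) between tissues, and CLH1.1.3 (-0.13 to 0.032), CLH1.2.3 (-0.0012 to 0.067) and PICAL (-0.17 to 0.083) in brain with gold. AP1G1 lost its call without control liver 3 or 5 and with RLE factors (0.21, adjusted p 0.0558), while eps15 (without control liver 3), epn3 (1) and ap3s2.2.2 (2 or 6) gained one. Low counts limit appl2, cav2, snx8 and bin1b in brain.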

Other observations

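Partner genes of the coat, in 4 lists of 99 contigs in all, were split between brain and liver as well. In control eels 36 were higher in liver, 42 lower and 21 did not pass, where 34.9% of all contigs were higher and 40.1% lower, and with library totals 5 were higher and 88 lower. Coat assembly and kinases had 12 higher and 18 lower of 36, scission and uncoating 14 and 16 of 36, endosomal sorting 7 and 7 of 22, and caveolae and flotillins 3 and 1 of 5. Among genes of coat assembly, necap1, a partner of AP-2, had a lowest, median and highest value of 77.6, 82.6 and 89.3 CPM in control brain and 0.636, 1.15 and 1.605 CPM in control liver (log2 fold change -6.18). The AP-2 regulator sgip1.2.4 was at -6.30 and the arrestin arrb1.2.2 at -5.77. The endophilin sh3gl2.1.2, a partner of dynamin, was at -6.12. The contigs snap91.1.2 and snap91.2.2, which carry another name of AP180 that the pattern did not match, were at -6.69 and -6.20. Of the endosomal genes, zfyve16 (-3.40) and zfyve9.1.3 (-2.37, but 0.15 with sums by label) were lower in liver. Higher in liver were pdcd6ip.2.2, which works with the ESCRT machinery of endosomes (1.70, but -0.45 with library totals), the cavin sdpr (1.72, but -0.42) and the flotillin FLOT2.3.3 (0.82, but -1.34, and 0.046 with an adjusted p of 0.782 with sums by label). The 4 contigs under protein entry names (3 of the clathrin heavy chain and PICAL) were all lower in liver, CLH1.3.3 by -1.95 and PICAL by -2.60.

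The partners gave no calls for gold. Of those tested with edgeR, 0 of 95 passed in liver and 0 of 99 in brain. At an unadjusted p under 0.05 there were 5 higher and 1 lower in liver. Of all contigs tested there, 4.41% were higher and 4% lower at that p (8.4% in all). In brain there were 7 higher and 1 lower, where 3.37% of all contigs were higher and 4.39% lower (7.75% in all). The linker of clathrin and actin hip1r.1.2 was at 0.79 in liver with an unadjusted p of 0.0130. The copies of the coat initiator fcho2 went opposite ways in both tissues, with fcho2.1.3 at -0.85 in liver and -0.58 in brain and fcho2.3.3 at 0.57 and 0.47. The retromer subunit vps35 was at 0.35 in liver, but -0.11 with sums by label, and at 0.41 in brain. Clathrin heavy chain contigs were at 0.28, 0.33 and 0.46 in liver, and none passed.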
